A study of Mus musculus with 6 samples.

Results

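The 5 genes described here, Nodal, Tdgf1, Acvr2b, Lefty1 and Lefty2, encode the ligand, the coreceptor, a receptor and the inhibitors of the Nodal pathway. They were taken by name from the gene table, in which each of the 5 has 1 row among 12626 genes. RNA-seq was performed on WT J1 mouse ES cells, a single line grown without feeders, as they were moved from a serum medium into 2i+vitC medium. D0 cells were kept in serum medium with 15% FBS. D6 and D13 cells had spent 6 and 13 days in serum-free medium with 3 µM of the Gsk3 inhibitor CT-99021, 1 µM of the MEK inhibitor PD0325901 and 100 µg/mL of vitamin C. LIF was present at 1000 U/mL in both media. Each day has 2 biological replicates, 6 samples in all, and all cells are unmodified. As D0 differs from the later days in both medium and time, these cannot be told apart.

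Nodal is a secreted TGF-β family ligand. It binds type II receptors such as Acvr2b and type I receptors such as Acvr1b together with the coreceptor Tdgf1 (Cripto), and the activated receptors phosphorylate Smad2 and Smad3, which enter the nucleus with Smad4 and act with partners such as Foxh1. Among the genes switched on are Nodal itself and its secreted inhibitors Lefty1 and Lefty2, so that the pathway holds both a positive and a negative loop. In the embryo it patterns the epiblast and the left-right axis, and ES cells make several of its components.

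Expression is given as the deposited log2 CPM, the log2 of a read count scaled by library size, where an increase of 1 is a doubling. Each sample had between 73230745 and 83688345 reads on genes. The interval between D0 and D6 is called the first step and that between D6 and D13 the second. The days were compared with limma on all 6 samples, with Benjamini-Hochberg adjustment over 12928 genes and transposon families. A gene was called at more than a 4-fold difference and an adjusted p under 0.05, and is said to have risen or fallen where the adjusted p alone was under 0.05. The ES cell markers Pou5f1, Sox2, Nanog, Zfp42, Sall4, Esrrb, Dppa5a and Utf1 all had a row, and their summed level was between 3649 and 6267 CPM in the 6 samples, although single markers moved in both directions. In the first step Nanog rose (limma, 2.00 ± 0.22, adjusted p = 0.00029) and Utf1 fell (limma, -2.10 ± 0.28, adjusted p = 0.00097). Between D0 and D13, Nanog and Dppa5a rose, Utf1, Sox2 and Sall4 fell, and Pou5f1, Zfp42 and Esrrb did not pass the test.

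Lefty1 and Lefty2 are close paralogs, and their sequences bear on how well their reads can be told apart. Lefty2 lies at chr1:180893108-180899103 and Lefty1 at chr1:180935022-180938400 (GRCm38, both on the plus strand), 35918 bases apart. Their coding sequences are both 1104 bases long, and 1014 of these bases are identical (91.8%). Of the 1521 windows of 100 bases, the read length, in the Lefty1 transcript, 73 were found without a mismatch in Lefty2, which is 4.80%, and 44.1% matched within 5 mismatches. For Lefty2, which has the longer transcript, these shares of its windows were 3.07% and 28.3%. A part of the reads of either gene could therefore be counted for its paralog or not at all, and how large it was in these libraries was not tested.

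Expression of the ligand was nearly the same at D0 and D6 and much lower at D13. Nodal (chr10:61417972-61425338, plus strand) was at 5.97 and 6.06 log2 CPM in the D0 samples, 5.96 and 5.96 in the D6 samples and 3.18 and 3.49 in the D13 samples. Both D13 samples were below every earlier sample by more than 2 log2 units. Nodal fell 6.16-fold in the second step, a log2 fold change of -2.62 ± 0.22 (SE; limma, adjusted p = 0.0056). Without D13 replicate 1 this value was -2.47 and did not pass the test (limma, adjusted p = 0.087). In the preceding step the log2 fold change was -0.06 ± 0.22 (limma, adjusted p = 0.89), with a 95% interval from -0.57 to 0.45. Over the whole conversion Nodal fell 6.41-fold (limma, log2 fold change -2.68 ± 0.22, adjusted p = 6.3e-05). In these bulk samples, fewer cells that express a gene and less RNA per cell cannot be told apart.

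The receptor side of the pathway showed no change that passed the test. Tdgf1 (chr9:110939603-110946158, minus strand), the coreceptor that Nodal needs to engage its receptors, had the highest level per kilobase of exon of the 5 genes in every sample. Its values were 10.21 and 8.76 log2 CPM in the D0 samples, 9.51 and 9.44 in the D6 samples and 9.48 and 8.90 in the D13 samples. The D0 replicates lay further apart than any of the day means, with the D0 values on both sides of all later ones. The log2 fold change was -0.01 ± 0.43 in the first step (95% interval -0.99 to 0.97; limma, adjusted p = 0.99) and -0.29 ± 0.43 in the second step (95% interval -1.27 to 0.69; limma, adjusted p = 0.72). From D0 to D13 it was -0.30 ± 0.43 (95% interval -1.28 to 0.68; limma, adjusted p = 0.61). The direction of these values depended on single libraries. Without D0 replicate 1 the first-step value was 0.71 and the D0 to D13 value 0.43, whereas without D0 replicate 2 the D0 to D13 value was -1.02 with a limma adjusted p of 0.04. Of the 1833 windows of 100 bases in the Tdgf1 transcript, 4.69% occur without a mismatch in the pseudogene Tdgf1-ps1 and 22.6% within 5 mismatches. Within 5 mismatches, 2.78% also match Tdgf1-ps2 and 1.31% Gm13455. A part of the Tdgf1 reads thus has more than 1 possible source, and how large it was in these libraries was not tested.

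Acvr2b (chr9:119402118-119434995, plus strand), a type II receptor for Nodal and the activins, had the lowest level per kilobase of exon of the 5 genes at D0 and D6. It was at 3.59 and 4.11 log2 CPM in the D0 samples, 3.32 and 3.10 in the D6 samples and 3.55 and 3.59 in the D13 samples. The D6 samples were the lowest and lay below those of both other days, and the D13 samples lay close to the lower D0 sample. The log2 fold change was -0.64 ± 0.29 in the first step (95% interval -1.29 to 0.01; limma, adjusted p = 0.15) and 0.36 ± 0.29 in the second step (95% interval -0.29 to 1.01; limma, adjusted p = 0.47). From D0 to D13 it was -0.28 ± 0.29 (95% interval -0.93 to 0.37; limma, adjusted p = 0.46). An annotated antisense gene overlaps Acvr2b. The libraries were made with a stranded kit, but the methods do not state whether reads were counted by strand.

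The 2 inhibitors, which bind Nodal and its coreceptor and block signaling, took different courses. Lefty1 was at 6.67 and 6.92 log2 CPM in the D0 samples, 5.10 and 4.17 in the D6 samples and 1.62 and -0.01 in the D13 samples. The samples of the 3 days did not overlap, and the spread between replicates grew as the level declined. In reads, Lefty1 went from 8044 and 10569 at D0 to 219 and 74 at D13. It fell 4.47-fold in the first step (limma, log2 fold change -2.16 ± 0.51, adjusted p = 0.015). It fell 14.2-fold in the second step (limma, log2 fold change -3.83 ± 0.51, adjusted p = 0.016). From D0 to D13 the decrease was 63.7-fold (limma, log2 fold change -5.99 ± 0.51, adjusted p = 6.9e-05). The first-step decrease did not pass the test without D0 replicate 1 (limma, -2.28, adjusted p = 0.065), D0 replicate 2 (-2.04, adjusted p = 0.086) or D6 replicate 2 (-1.70, adjusted p = 0.057), and that in the second step did not pass it without D13 replicate 1 (-4.65, adjusted p = 0.087).

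Lefty2 instead was highest at D6 in both replicates. It was at 6.27 and 6.13 log2 CPM in the D0 samples, 7.02 and 6.77 in the D6 samples and 4.78 and 4.48 in the D13 samples. All D6 samples lay above all D0 samples, and all D13 samples lay below both. The difference in the first step was 0.69 ± 0.22 on the log2 scale (95% interval 0.19 to 1.20), which missed the threshold (limma, unadjusted p = 0.013, adjusted p = 0.053) but passed it without D13 replicate 1 (adjusted p = 0.031) or D13 replicate 2 (adjusted p = 0.03). Lefty2 fell 4.81-fold in the second step (limma, log2 fold change -2.26 ± 0.22, adjusted p = 0.01), which did not pass the test without D13 replicate 1 (-2.41, adjusted p = 0.087). From D0 to D13 it fell 2.97-fold (limma, log2 fold change -1.57 ± 0.22, adjusted p = 0.00078), which is under the 4-fold minimum.

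**Figure D1:**
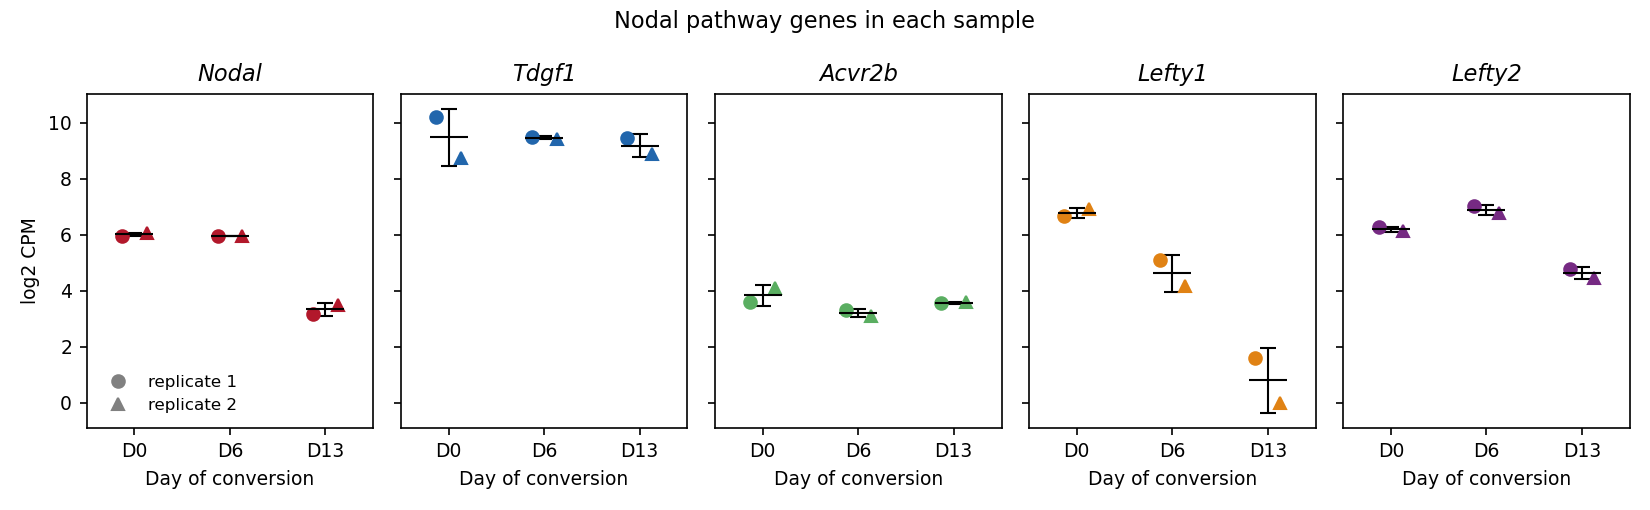
Log2 CPM of the 5 genes (y axis, 1 panel a gene) in each sample of D0, D6 and D13 (x axis), with circles for replicate 1 and triangles for replicate 2, a horizontal line for the mean of the 2 and bars for the SD. Nodal and Lefty2 are low at D13 only, Lefty1 is lower on each later day and reaches 1.62 and -0.01, and the D0 values of Tdgf1 lie at 10.21 and 8.76.

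In the first step, 1 of the 5 genes, Lefty1, was called lower and none higher, where 3.90% of all 12626 genes were called lower and 5.91% higher. In the second step, 3 of the 5, Nodal, Lefty1 and Lefty2, were called lower and none higher, where 0.697% of all genes (88 genes) were called lower and 0.388% higher. Ordered by log2 fold change in the second step, Lefty1 was the 4th lowest of 12626 genes, Nodal the 38th and Lefty2 the 75th. From D0 to D13, Nodal and Lefty1 were called lower, where 6.01% of all genes were called lower and 7.45% higher, and Lefty2 also fell. The median log2 fold change of the 5 genes was -0.06 in the first step, -2.26 in the second step and -1.57 from D0 to D13, and that of all genes was -0.01 in each. Without D13 replicate 1, none of the 3 decreases in the second step passed the test, and limma called 0 of all 12626 genes, with 2285 at an unadjusted p under 0.05, the 3 genes among them. The 3 decreases from D0 to D13 passed the adjusted p with each of the 6 samples left out in turn.

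**Figure D2:**
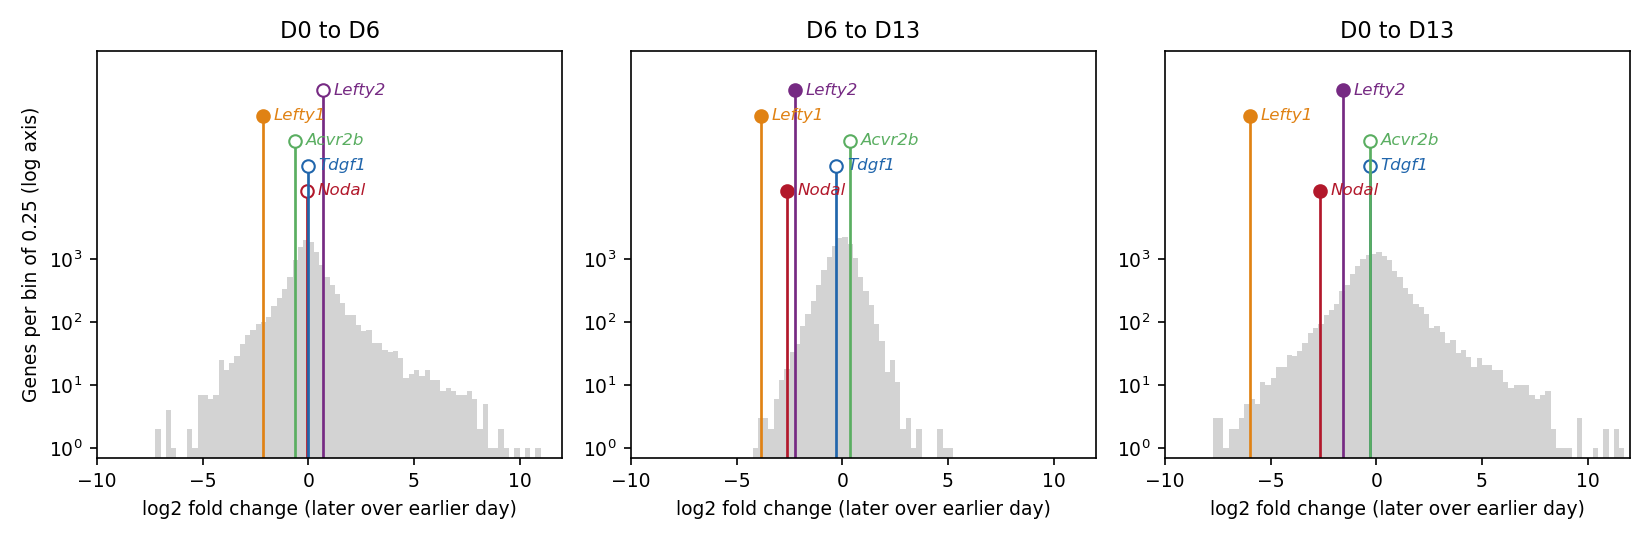
Number of genes (y axis, log scale) by log2 fold change in bins of 0.25 (x axis) for each comparison, in grey, with a stem for each of the 5 genes, filled where the adjusted p was under 0.05. Heights of the stems carry no value. In the second step the stems of Lefty1, Nodal and Lefty2, at -3.83, -2.62 and -2.26, stand in the far left tail, while in the first step only Lefty1, at -2.16, is filled.

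To compare levels between genes, CPM was divided by the length of the annotated exons, which gives RPKM. At D0 the order was Tdgf1 (309 ± 203 RPKM, SD, n = 2), Lefty1 (63.5 ± 7.6), Nodal (31.0 ± 1.4), Lefty2 (28.2 ± 1.9) and Acvr2b (3.73 ± 0.95). Nodal and Lefty2 were neighbors that differed little at D0, with replicates from 29.9 to 32.0 and from 26.8 to 29.5 RPKM. At D6 Lefty2 had 45.7 ± 5.6 RPKM, above Nodal at 29.7 ± 0.1 and Lefty1 at 14.9 ± 6.6, while Tdgf1 had 271 ± 9 and Acvr2b 2.36 ± 0.25. At D13 Tdgf1 still had 227 ± 64 RPKM, whereas Lefty2 had 9.52 ± 1.38, Nodal 4.85 ± 0.73, Acvr2b 3.02 ± 0.05 and Lefty1 1.16 ± 0.84. The D13 replicates of these 5 genes did not overlap, so that Lefty1 moved from the second place at D0 to the last. With the longest transcript as the length, the order of the 5 day means was the same on each day.

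Among the reads of the inhibitors, Lefty1 held the larger share at D0 and Lefty2 on the later days. Lefty1 contributed 57.0% and 63.3% of the Lefty reads in the D0 replicates, 20.9% and 14.2% in those of D6, and 10.1% and 4.24% in those of D13. The widest 95% Wilson interval, at D13 replicate 1, was 8.86% to 11.4%, and it covers counting error only. No sample of a day overlapped with a sample of another day. The log2 difference between Lefty1 and Lefty2 averaged 0.60 ± 0.27 (SD, n = 2) in serum, -2.26 ± 0.48 in the D6 samples and -3.82 ± 0.94 in those of D13. With 2 samples a day, a two-sided exact permutation test between days cannot go below p = 0.333, and no other test of this difference was made.

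Relative to the ligand, the sum of the inhibitors varied less than either inhibitor did. The summed RPKM of Lefty1 and Lefty2 was 2.93 and 3.00 times that of Nodal in the D0 replicates, 2.33 and 1.74 times in those of D6, and 2.82 and 1.70 times in those of D13. The D13 values span those of D6 and nearly reach those of D0. In contrast, the RPKM of Tdgf1 was 15.1 and 5.17 times that of Nodal in the D0 samples, 9.36 and 8.88 times in the D6 samples and 62.8 and 33.8 times in the D13 samples. Both D13 values were above all earlier ones.

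**Figure D3:**
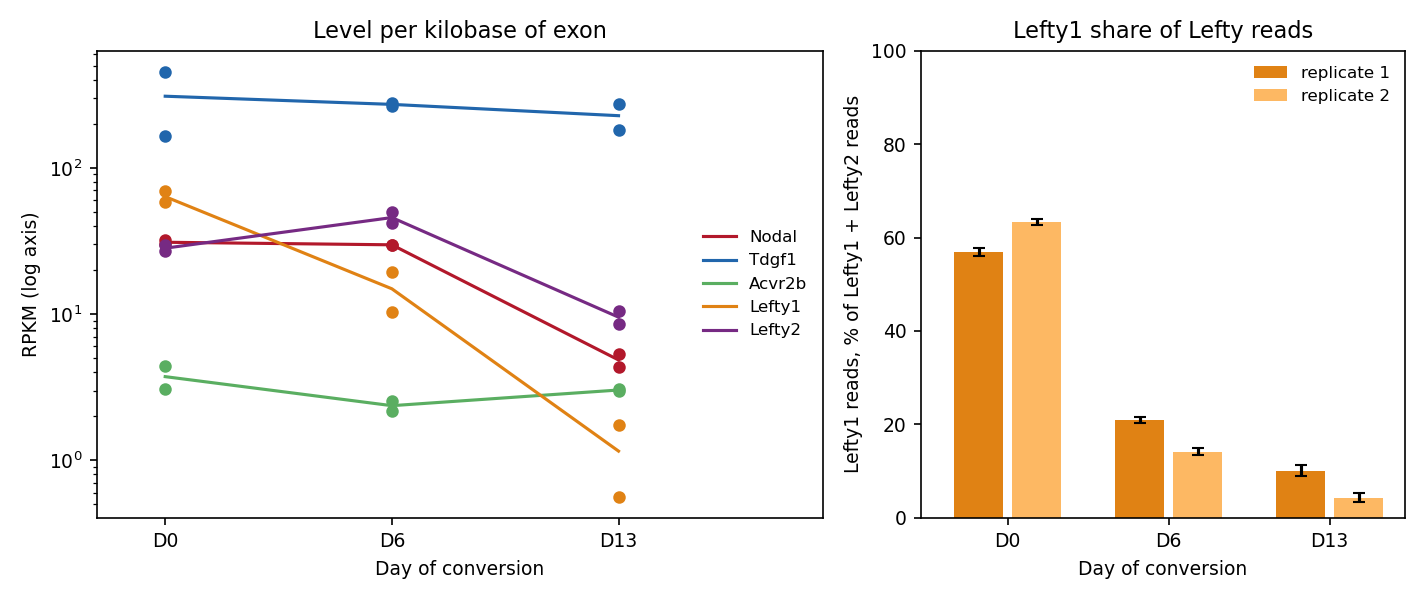
Left, RPKM of the 5 genes (y axis, log scale) by day (x axis), with a point per sample and a line through the day means. Right, Lefty1 reads as a percentage of Lefty1 and Lefty2 reads in each sample, with 95% Wilson intervals as bars. The line of Lefty1 crosses those of Nodal and Lefty2 between D0 and D6 and that of Acvr2b between D6 and D13, and its share of the Lefty reads goes from 57.0% and 63.3% to 10.1% and 4.24%.

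As the study concerns DNA methylation, the sequences just upstream of the start sites are of interest for their CpG content. Methylation was not measured in these files. RefSeq promoters (GRCm38.p6) were matched for 3 of the 5 genes. The 250 bases before the start of Nodal, which fell late, and of Tdgf1, which did not pass the test, are shown 5′ to 3′ on the strand of the gene, with CpG in capitals:

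Nodal, chr10:61417722-61417971, plus strand: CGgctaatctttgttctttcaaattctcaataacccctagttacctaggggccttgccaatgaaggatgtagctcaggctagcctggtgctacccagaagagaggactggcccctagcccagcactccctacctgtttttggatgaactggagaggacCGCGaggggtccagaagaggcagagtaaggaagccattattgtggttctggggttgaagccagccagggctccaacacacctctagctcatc

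Tdgf1, chr9:110946159-110946408, minus strand: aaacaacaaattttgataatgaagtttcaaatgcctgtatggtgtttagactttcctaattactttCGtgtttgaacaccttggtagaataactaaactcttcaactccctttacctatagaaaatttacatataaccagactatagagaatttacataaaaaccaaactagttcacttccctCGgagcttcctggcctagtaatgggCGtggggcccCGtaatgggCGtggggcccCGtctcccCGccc

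The Nodal sequence holds 3 CpG and that of Tdgf1 7, against a median of 6 over 32851 RefSeq promoters of this length, while that of Acvr2b holds 24. On both strands together, the Smad-binding letters CAGAC occur 0 times in the Nodal window, once in that of Tdgf1 and once in that of Acvr2b. They occur in 42.2% of all promoters. The Foxh1-binding letters AATNNACA occur 2 times in the Tdgf1 window, 0 times in the others, and in 10.9% of all promoters.

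The 5 genes were then set beside a list of 63 pathway genes with the 5 included, of which 47 had a row. In the first step, 9 of the 47 fell (19.1%) and 3 rose (6.38%), where 10.4% of all genes fell and 13.8% rose. In the second step, 4 of the 47 fell (8.51%), all of them more than 4-fold, and 0 rose (limma, also with voom precision weights, and 2 were higher at an unadjusted p under 0.05), where 2.76% of all genes fell and 1.43% rose. Nodal, Lefty1 and Lefty2 were 3 of the 4, so this share came mostly from genes chosen with earlier results of these data known. It does not describe the rest of the list. From D0 to D13, 15 of the 47 fell (31.9%) and 4 rose (8.51%), where 21.8% of all genes fell and 20.9% rose. The median log2 fold change of the 47 was -0.28 in the first step, -0.29 in the second step and -0.44 from D0 to D13. Without D13 replicate 1, limma called 0 of the 47 in the second step, and 10 had an unadjusted p under 0.05.

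Among the other ligands, Inhbb, a subunit of activin B, was at 2.83 and 1.97 log2 CPM in the D0 samples, 1.46 and 2.69 in the D6 samples and 0.31 and 0.01 in the D13 samples. It was low at D13 in both replicates, as Nodal was, and fell from D0 to D13 (limma, log2 fold change -2.24 ± 0.50, adjusted p = 0.0072), while the value in the second step was -1.91 ± 0.50 (limma, adjusted p = 0.062). Tgfb1, the ligand of the TGF-β receptors, fell in the first step (limma, -1.39 ± 0.38, adjusted p = 0.029), but did not pass the test with any 1 of the 4 samples of these days left out (limma, adjusted p = 0.054 to 0.14). Of the convertases that cleave the Nodal precursor, Pcsk6 rose in the first step (limma, 1.32 ± 0.26, adjusted p = 0.0062), while Furin had a log2 fold change of 0.46 ± 0.25 (limma, adjusted p = 0.22).

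None of the 6 receptors and coreceptors with a row passed the limma test in any comparison, with or without voom precision weights, and 0 had an unadjusted p under 0.05. The type I receptor Acvr1b ranged from 4.45 to 5.41 log2 CPM over the 6 samples and the type II receptor Acvr2a from 3.64 to 5.19. The TGF-β receptors Tgfbr1 and Tgfbr2 ranged from 5.09 to 6.28 and from -0.03 to 1.35 log2 CPM.

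Among the signal transducers, Smad3 was the one that rose. It was at 4.04 and 3.73 log2 CPM in the D0 samples, 5.70 and 5.60 in the D6 samples and 4.90 and 5.53 in the D13 samples (limma, first step 1.77 ± 0.27, adjusted p = 0.0019). All samples in 2i+vitC were above both serum samples. Smad2, the other transducer that the receptors phosphorylate, had a log2 fold change of 0.04 ± 0.29 in the first step (limma, adjusted p = 0.94). Smad4, their common partner, had one of -0.28 ± 0.22 (limma, adjusted p = 0.41). Foxh1, the DNA-binding partner of the Smads, was at 6.03 and 6.11 log2 CPM in the D0 samples, 5.27 and 5.26 in the D6 samples and 6.13 and 5.71 in the D13 samples, with a log2 fold change of -0.80 ± 0.22 in the first step (limma, adjusted p = 0.032). This decrease did not pass the test without D0 replicate 1 (limma, adjusted p = 0.073), D0 replicate 2 (0.091), D6 replicate 1 (0.23) or D6 replicate 2 (0.21).

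None of the other antagonists and attenuators passed the test in the second step (limma, 4 of 21 at an unadjusted p under 0.05). Skil, which encodes the Smad corepressor SnoN and is itself a target of the pathway, was at 8.72 and 8.10 log2 CPM in the D0 samples, 5.92 and 5.88 in the D6 samples and 5.23 and 6.27 in the D13 samples. It fell in the first step (limma, log2 fold change -2.51 ± 0.35, adjusted p = 0.0011) and had a value of -0.15 ± 0.35 in the second step. Ltbp1, which binds latent TGF-β in the matrix, fell from D0 to D13 (limma, -2.21 ± 0.31, adjusted p = 0.00075). It fell in the first step (limma, -1.93 ± 0.31, adjusted p = 0.0023) and had a value of -0.29 ± 0.31 in the second step (limma, adjusted p = 0.61). Fstl3, a binder of activins, fell in the first step (limma, -2.03 ± 0.53, adjusted p = 0.024), but did not pass the test without D0 replicate 1 (limma, -1.59, adjusted p = 0.11), D6 replicate 1 (adjusted p = 0.089) or D6 replicate 2 (adjusted p = 0.1). Dact2, which promotes turnover of Nodal receptors, rose in the first step (limma, 1.68 ± 0.32, adjusted p = 0.0059). The inhibitory Smad7 had values of 0.17 ± 0.29 in the first step and -0.77 ± 0.29 in the second step (limma, adjusted p = 0.73 and 0.15).

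Of 20 genes listed as targets in the embryo and in ES cells, 13 had a row, and this list shares Nodal, Lefty1, Lefty2, Tdgf1, Smad7, Skil, Pmepa1 and Eomes with the roles above. Of the 13, 5 fell in the first step (38.5%, where 10.4% of all genes fell) and 4 in the second (30.8%, where 2.76% of all genes fell), with Nodal, Lefty1 and Lefty2 among the 4. Over both steps, from D0 to D13, 8 of the 13 fell (61.5%, where 21.8% of all genes fell). The list includes 4 of the 5 genes described here, and its share in the second step came mostly from them. Otx2, a factor of the post-implantation epiblast, and Id1, which is also induced by BMP signaling, fell in the first step (limma, -2.26 ± 0.32, adjusted p = 0.0013, and -4.25 ± 0.76, adjusted p = 0.0039). The D0 replicates of Id1 were far apart, at 7.35 and 4.56 log2 CPM. Pmepa1 and Eomes did not pass the test in any comparison.

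**Figure D4:**
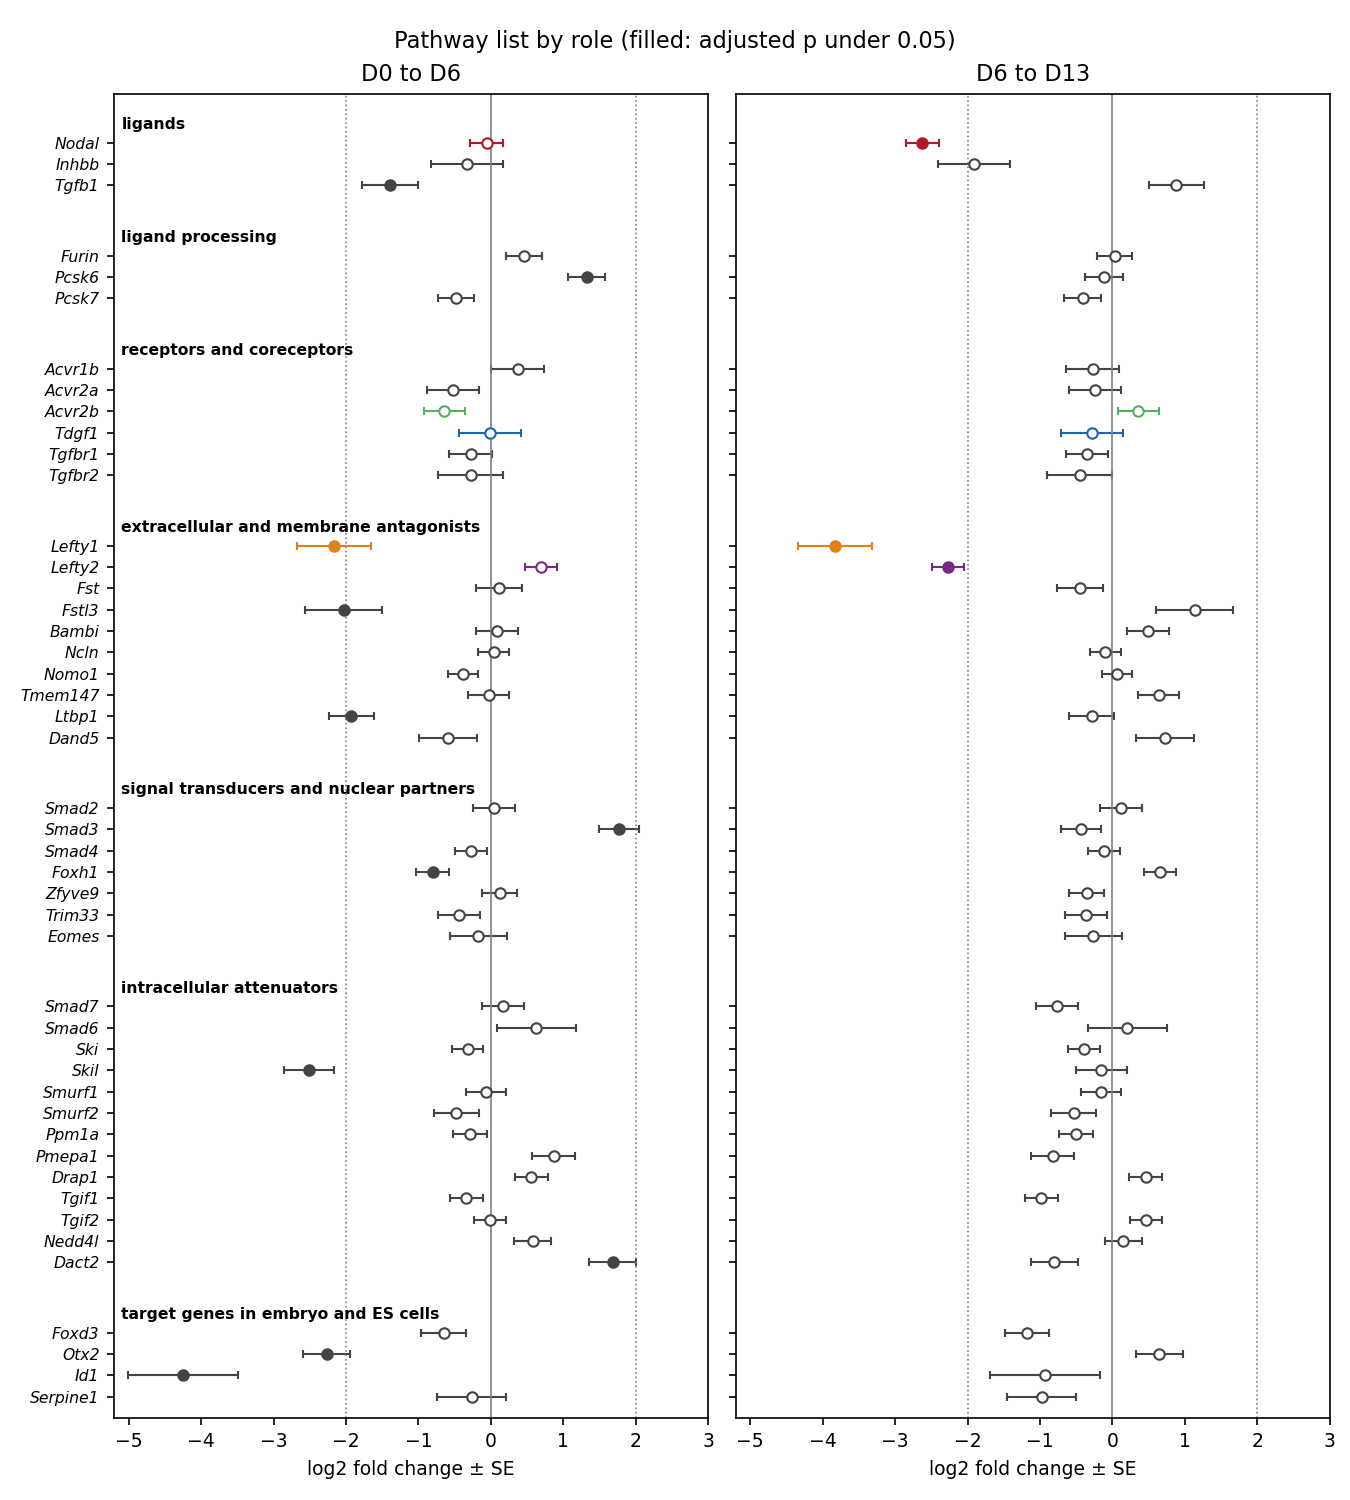
Log2 fold change (x axis, with SE as bars) of the pathway genes with a row, 1 of the 47 left out, grouped by role, in the first step (left) and in the second step (right), with filled points where the adjusted p was under 0.05 and dotted lines at a 4-fold difference. A gene in several roles is drawn once. Filled points stand in every role other than the receptors and coreceptors on the left, whereas on the right they are Nodal, Lefty1 and Lefty2.

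The likeness of other genes to each of the 5 was measured as the root mean square difference of log2 CPM, centered on the mean of each gene, over the 6 samples and 11259 genes. The genes most like Nodal were Slc10a3, Ddx58 and Zfp936, with differences of 0.25, 0.25 and 0.26 log2 units. Lefty2 held place 70 (0.50), Tdgf1 4598 and Lefty1 8046. The genes most like Lefty2 were Setmar, Mterf1a and Zfp296 (0.20, 0.24 and 0.25), with Nodal at place 98. Those most like Lefty1 were Bdh2, Lrrc1 and Basp1 (0.56, 0.67 and 0.68), with Nodal at place 173 and Lefty2 at 631. The difference between Lefty2 and Lefty1 was 1.88, against 0.50 between Lefty2 and Nodal. Tdgf1 was most like Snhg5, Elovl1 and Hnrnpm (0.03, 0.17 and 0.17) and Acvr2b most like Sox21, Cutc and Rnf146 (0.06, 0.06 and 0.07). Snhg5 was at 7.03 and 5.54 log2 CPM in the D0 samples, so its likeness to Tdgf1 includes the gap between the D0 replicates.

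Some markers of other cell states moved between D0 and D6, the step in which Lefty1 fell for the first time. Of 5 markers of the post-implantation epiblast, 4 had a row, and their summed level was 1010 and 864 CPM at D0, 75.6 and 121 on D6, and 82.9 and 99.6 on D13. Dnmt3b made up most of each sum, with 891 and 736 CPM in the D0 samples. All 4 (Pou3f1, Otx2, Dnmt3b and Sox3) fell in the first step, and 0 passed the limma test in the second step. Sox3 alone had an unadjusted p under 0.05 there and was higher at D13 than at D6 (limma, 2.33 ± 0.58, adjusted p = 0.057). Between D0 and D13 the other 3 fell, while Sox3 did not pass the test (limma, -0.79 ± 0.58, adjusted p = 0.3). For the trophectoderm, 4 of 6 markers had a row, with sums of 202 and 177 CPM at D0 and 92.6 to 109 later. Its keratins Krt8, Krt18 and Krt7 fell in the first step (limma, log2 fold changes -2.69, -4.11 and -1.79, adjusted p = 0.00022, 6.1e-05 and 0.0082). Tfap2c, at 30.9 and 65.8 CPM in the D0 samples and 90.1 and 92.8 in the D6 samples, went the other way without passing the test (limma, 1.02 ± 0.33, adjusted p = 0.054) and made up most of the later sums. For fibroblasts, 4 of 7 had a row, with 33.1 and 13.5 CPM at D0 and 7.84 to 10.6 later, and Thy1 alone passed the test in the first step (limma, -1.89 ± 0.45, adjusted p = 0.016). For the primitive endoderm, 3 of 7 had a row. Gata4 and Gata6 had none under their names, as no gene name holds a capital G, so their levels are not known here. The summed level of the 3 was 17.8 and 20.4 CPM at D0 and 3.48 to 5.42 later. This decrease was that of Dab2 (limma, -4.32 ± 0.40 in the first step, adjusted p = 0.00015), whereas the values of Sox17 (0.16 ± 0.49) and Pdgfra (0.52 ± 0.46) lay above 0 and did not pass the test (limma, adjusted p = 0.85 and 0.47). For the mesendoderm and primitive streak, Eomes alone of 7 had a row, with 2.97 to 5.41 CPM in all samples. Every marker with a row had reads in all 6 samples. The part of these shifts in the first-step decrease of Lefty1 was not tested. In the second step, when Nodal, Lefty1 and Lefty2 fell together, the trophectoderm keratins Krt18 and Krt7 rose, and no other marker of these lists passed the test.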

How the data were processed

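RNA-seq of J1 WT ES cells was analyzed at D0, D6 and D13. Per their methods, the authors mapped 100-base paired-end reads from stranded mRNA libraries to mm10 with TopHat2 2.0.6, allowing 5 mismatches, and counted RefSeq genes with HTSeq 0.6.1. Transposon families, mapped with Bowtie 1.0.0, were joined to the gene table before TMM scaling, and the deposited values are voom log2 CPM. Reads could be read off them, as 100% of values below 1000 reads lay within 0.02 of a whole number, and recomputed voom values differed from the deposited log2 values by at most 4.97e-14. A value of 3 reads was 0.034 to 0.042 CPM.

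limma 3.58.1 (R 4.3.3) was run on these log2 values as deposited, with a mean per day, all 6 samples and a mean-variance trend. P-values weigh a difference between days against the spread between the 2 biological replicates of a day. This spread was pooled over the days and moderated across genes and families. RPKM, ratios and figures were made with Python 3.11.15. On simulated data, limma called 100% of 100 genes at a log2 change of 3 from D0 to D6, over 12928 rows, with 0 unchanged rows called by the 4-fold rule. By the adjusted p alone it found 100% of 100 genes at a log2 change of 1.5, with 17 unchanged rows called. The simulated counts had the same dispersion in every row, and the changed genes were taken above a minimum mean level. They therefore do not show how often a change is found at the spread of the real replicates. Positions and lengths are from GENCODE vM21 (GRCm38, the build called mm10), while the authors counted on RefSeq.

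The genes and lists were chosen with earlier results of these data known. Named are the 5 genes, pathway genes past 4-fold in any comparison (1 is not reported here), main receptors and transducers, and the 3 genes most like each of the 5 with a mean log2 CPM of at least 0. A few others that passed the test, and Furin, Smad7, Pmepa1 and Eomes, were named after their values were seen. No gene name in the files holds a capital G, so that 464 begin in lower case, and 44 names stand on several rows. Such rows were tested but not named, and 16 listed pathway genes, among them Gdf3 and Gsc, had no row under their name and were not analysed here. The markers Gata4 and Gata6 had none either. Alternatives were a minimum of 10 reads in 2 samples, separate fits for each pair of days, a block by replicate number, adjustment over genes only, an adjusted p under 0.01, 2-fold or no fold minimum, voom precision weights, no trend, centering on the median gene, each sample left out in turn, and the longest transcript as length.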

Additional observations from a re-analysis of the deposited data

How the results depend on the processing

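The decreases of Nodal, Lefty1 and Lefty2 from D0 to D13 kept their direction and an adjusted p under 0.05 in limma under every alternative run. With an adjusted p under 0.01, Lefty1 was not called from D0 to D6 (-2.16) or from D6 to D13 (-3.83), nor Lefty2 from D6 to D13 (-2.26), which left 0 and 1 of the 5 genes, and 3 and 1 of the 47 pathway genes, called lower in these steps. Lefty2 passed the adjusted p from D0 to D6 at 0.69 in a fit of the 2 days compared (adjusted p = 0.029), with the replicate block (adjusted p = 0.037) and with voom precision weights (adjusted p = 0.048), and without either D13 sample. The cause was not tested.

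Leaving out each sample in turn, log2 fold changes ranged from -2.78 to -2.47 for Nodal from D6 to D13, from -2.63 to -1.70 for Lefty1 from D0 to D6 and from -4.65 to -3.02 from D6 to D13, and from 0.57 to 0.82 and from -2.41 to -2.12 for Lefty2 in the same steps. For Tdgf1 they ranged from -0.74 to 0.71 from D0 to D6, from -0.58 to 0.0065 from D6 to D13 and from -1.02 to 0.43 from D0 to D13. The reversals of Tdgf1 came without D0 replicate 1 (0.71 and 0.43), D6 replicate 2 (0.023) and D13 replicate 2 (0.0065). The 5 genes gave 0 to 1 called lower from D0 to D6 and 0 to 3 from D6 to D13. The pathway list gave 3 to 5 and 0 to 4 called lower, and 0 to 1 called higher from D0 to D6. When a day is left with 1 sample, that sample is assumed to vary like those of the other days.

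With a 2-fold minimum, 3 pathway genes were called higher and 8 lower from D0 to D6, and 3 and 12 from D0 to D13. With no fold minimum these were 3 and 9, and 4 and 15. The replicate numbers were shared between days. The differences between replicates 1 and 2 correlated over genes at -0.13 (D0 and D6), 0.14 (D0 and D13) and 0.33 (D6 and D13). Whether samples of the same number came from the same conversion is not stated by the labels and was not tested. The replicate block changed no other call of the 5 genes. Of all genes, 49 were called higher and 88 lower from D6 to D13, but 20 and 37 without D6 replicate 1, 8 and 10 without D6 replicate 2, 0 and 0 without D13 replicate 1, and 64 and 193 without D13 replicate 2. The lowest value of the 5 genes was 74 reads. The longest transcript as length moved the RPKM of Tdgf1 to 368 at D6 and 308 at D13, and that of Acvr2b to 2.92 and 3.74.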

Other observations

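Genes next to the 5 loci were looked at after the values were seen, and no test beyond the same limma fit was made. The log2 fold changes of Sde2, before Lefty2, and Tmem63a, after Lefty1 (-0.18 ± 0.27 and -0.05 ± 0.29), did not pass the test from D6 to D13 (limma, adjusted p = 0.72 and 0.93). Next to Nodal, Eif4ebp2 had a log2 fold change of -0.23 ± 0.27 and Pald1 one of 0.83 ± 0.22 from D6 to D13 (limma, adjusted p = 0.64 and 0.062), and Pald1 rose from D0 to D13 (limma, 0.72 ± 0.22, adjusted p = 0.026), while Nodal fell in both. Next to Acvr2b, Exog fell from 4.95 log2 CPM at D0 to 2.28 at D13 (limma, -2.67 ± 0.31, adjusted p = 0.00027), whereas Xylb had a value of -0.43 ± 0.24 (limma, adjusted p = 0.19). Als2cl and Lrrc2, beside Tdgf1, did not pass the test in any comparison.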
